A study of Sus scrofa with 20 samples.

Results

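Voltage-gated sodium and calcium channels were followed in the hippocampus of high-reactive (HR) and low-reactive (LR) pigs through the genes for their pores and auxiliary subunits. A gene was a member if its symbol in the platform annotation began with CACNA, CACNB or CACNG, or was SCN followed by a number and A or B. This gave 33 genes with 66 probe sets, of 13755 named genes with 26426 probe sets. For each gene the probe set with the highest mean over all arrays stood for the gene, and 19 genes had several probe sets to choose from while 14 had 1. The rule used names and brightness only, not the difference between HR and LR.

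The samples were hippocampi of 20 German Landrace pigs, labelled as adult, 10 HR and 10 LR, each on its own Affymetrix Snowball array. Both groups were extremes of struggling in the backtest, a test in which a piglet is held on its back, and they were also selected by their haplotypes at a behavior-associated region of chromosome 12. The labels name no treatment for either group. The labels and methods do not state sex, litter or array batch, and all hippocampal cell types were pooled in each sample, so that fewer cells of a type and less RNA per cell cannot be told apart.

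Voltage-gated sodium channels open on depolarisation and carry the upstroke of the action potential, with a pore gene of the SCN#A kind and 1 or more beta subunits of the SCN#B kind. Voltage-gated calcium channels turn depolarisation into calcium entry, which drives transmitter release, dendritic spikes, pacemaking and calcium-dependent transcription. Their pores fall into the L-type, the P/Q-, N- and R-type and the low-voltage-activated T-type. Alpha2delta and beta subunits bring the pore to the membrane and tune its gating. The gamma family is named after a muscle channel subunit, but most of its brain members are transmembrane AMPA receptor regulatory proteins (TARPs), which traffic glutamate receptors and shape their currents. In the hippocampus these genes set the excitability of pyramidal cells and interneurons.

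Values are log2 signals after the robust multichip average (RMA), so a difference of 1 is a doubling of signal. Probe sets bind with different strength, and the levels below therefore describe each probe set and are not an order of transcript abundance. Probe sets with a mean over the 20 arrays above 5.53, the median of all non-control probe sets, were kept for testing. Of the members, 27 genes with 46 probe sets passed and 6 genes did not.

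By the brightest probe set of each gene, differences between HR and LR in the kept channel genes were at most 0.27 in size on the log2 scale. No member passed the adjusted threshold of 0.05 (limma, Benjamini-Hochberg over 23861 probe sets), and the smallest adjusted p was 0.342 among brightest probe sets and 0.339 among all kept probe sets of the members. No probe set of the whole array passed either, which is 0% of 23861, and 2750 of them, 11.5%, had an unadjusted p under 0.05 (2294 by the exact Wilcoxon rank sum test, with 0 adjusted). By the brightest probe set, 10.5% of 10313 named genes had an unadjusted p under 0.05 (7.1% with HR higher and 3.35% with HR lower), and 1 of 27 members did, which is 3.7%, with HR higher. That member was CACNG2, the TARP stargazin, at a log2 signal of 8.57 ± 0.18 in the HR animals and 8.30 ± 0.26 in the LR animals (SD, n = 10 each).

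The mean was higher in HR for 12 members and lower for 15, against 44.4% of all named genes higher in HR. The median difference over the members was -0.014 on the log2 scale, beside -0.019 over all named genes. Single members ran from -0.22 for SCN1A to 0.27 for CACNG2. HR and LR values overlapped in each of the 27 members, as in each of the 10313 genes (0% without overlap). By brightest probe set, the 95% intervals of the member differences reached no further than 0.54 from 0 on the log2 scale.

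**Figure D1:**
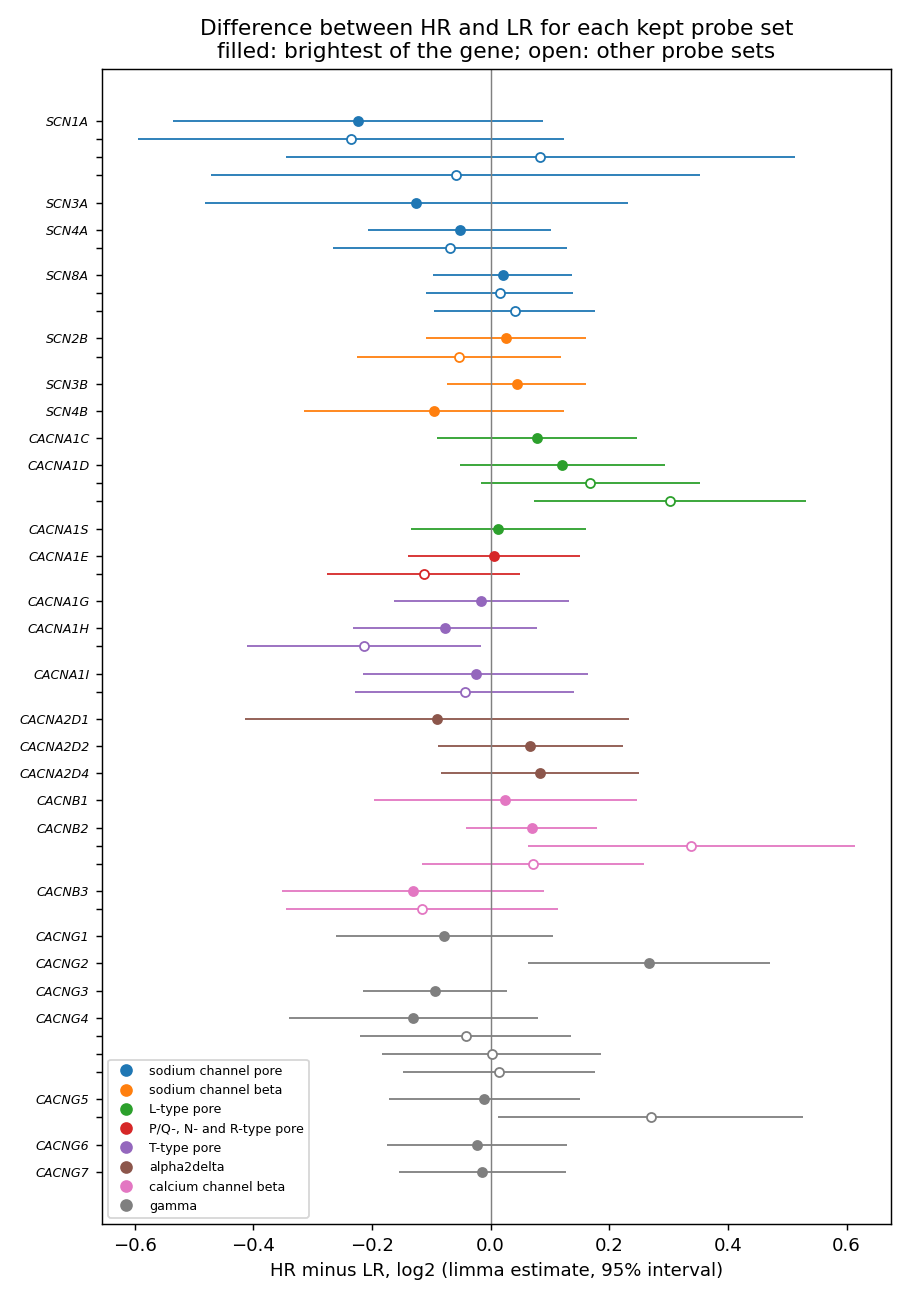
Difference in log2 signal, HR minus LR, with its 95% interval for each of the 46 kept probe sets of the member genes (n = 10 arrays per group), coloured by subfamily, with filled points for the brightest probe set of a gene and open points for the others. The intervals of all but 5 probe sets cross 0, and only the CACNG2 point among the filled ones lies clear of it.

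Sodium channel pores spanned the range from bright to not above the filter. SCN8A, the pore of mature axon initial segments and nodes, had a mean of 9.61 ± 0.10 (SD, 20 arrays). SCN1A, the pore on which fast-spiking inhibitory neurons depend, had 7.87 ± 0.37, and SCN3A, a pore best known from the fetal brain, had 6.87 ± 0.41. SCN4A, the skeletal muscle pore, had 5.87 ± 0.15, just above the filter. Of 5 skeletal and cardiac muscle markers 3 passed the filter and MYH7 and MYL1 did not, and the mean of the list ran from 5.63 to 5.98 in HR and from 5.63 to 6.07 in LR. SCN9A and SCN10A, pores of pain-sensing neurons, were below it with 5.11 and 2.72, and so was SCN7A, a sodium-sensing channel of glia, with 2.61.

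Of the 4 kept pores 1 had a higher mean in HR and 3 a lower one, with a median difference of -0.089. SCN1A (chr15:72529866-72696715, Sscrofa11.1) ran from 7.18 to 8.44 in HR, with a median of 7.79, and from 7.43 to 8.52 in LR, with a median of 7.92. The 2 lowest values belonged to HR animals, and above them the groups overlapped. The difference in SCN1A was -0.22 ± 0.15 (SE), with p = 0.151 and adjusted p = 0.544. Its 3 other kept probe sets gave differences from -0.24 to 0.084, so the sign was not shared. SCN3A differed by -0.13, SCN4A by -0.052 and SCN8A by 0.020.

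The differences of SCN1A, SCN3A and CACNA2D1 depended on the covariate in the fit, and grew with the main axis of variation among the arrays, described below. With the first principal component as a covariate SCN1A differed by -0.38 ± 0.10 (SE), with p = 0.00130 and adjusted p = 0.160. SCN3A then differed by -0.31 ± 0.12, with p = 0.0164 and adjusted p = 0.261. CACNA2D1 followed with -0.27 ± 0.093, with p = 0.00791 and adjusted p = 0.214. The title number, the GC-rich background (both explained below) and the neuron markers were also used as covariates. In that order SCN1A differed by -0.38, -0.39 and -0.40, SCN3A by -0.28, -0.36 and -0.35, and CACNA2D1 by -0.27, -0.29 and -0.31. With the myelin markers they differed by -0.24, -0.14 and -0.10. With the choroid plexus markers as a covariate the differences were -0.17 for SCN1A (p = 0.252), -0.034 for SCN3A (p = 0.825) and -0.036 for CACNA2D1 (p = 0.816). These fits used the brightest probe set of each gene. None of these passed the adjusted threshold. Without HR replicate 5, the array at one end of that component, SCN1A differed by -0.30, with p = 0.0430 and adjusted p = 0.512.

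Sodium channel beta subunits were measured by bright probe sets in part. SCN3B, which binds the pore without a covalent link, had 11.37 ± 0.10, and SCN2B, which is tied to it by a disulfide bond, had 10.10 ± 0.12. SCN4B, the subunit linked to resurgent current, had 6.55 ± 0.24. Their differences were 0.044 for SCN3B, 0.026 for SCN2B and -0.096 for SCN4B, each within 1 SD of either group.

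Among the L-type pores, the mean was higher in HR for 3 of 3 kept genes, with a median difference of 0.078, and none had an unadjusted p under 0.05 by its brightest probe set. CACNA1C and CACNA1D are the pores that couple hippocampal activity to transcription and pacemaking, CACNA1S is the voltage sensor of skeletal muscle and CACNA1F is a retinal channel. CACNA1S was close to the filter with 5.92 ± 0.14 and differed by 0.013. CACNA1F was below the filter with 4.60.

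CACNA1D (chr13:35568534-35911483) ran from 6.34 through a median of 6.74 to 6.89 in HR and from 6.10 through 6.59 to 6.76 in LR. Of the 10 HR values 8 lay above the LR median. The difference was 0.12 ± 0.083 (SE), with p = 0.162 and adjusted p = 0.556. LR replicate 3 stood apart with 6.10, and without it the difference was 0.069, with p = 0.354. All 3 kept CACNA1D probe sets were higher in HR, by 0.12, 0.17 and 0.30, and the one with 0.30 ± 0.11 had p = 0.0120 and adjusted p = 0.339. With the title number as a covariate (a number in the sample titles whose meaning is not stated), that probe set differed by 0.11, with p = 0.400.

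CACNA1C (chr5:69016954-69448428) ran from 7.64 through 7.99 to 8.23 in HR and from 7.66 through 7.84 to 8.22 in LR. Its groups covered nearly the same range, although 9 of 10 HR values were above the LR median. The difference was 0.078 ± 0.081 (SE), with p = 0.344 and adjusted p = 0.692. With the first component as a covariate it was 0.15 ± 0.063, with p = 0.0289 and adjusted p = 0.310. The other CACNA1C probe set, just below the filter with a mean of 5.48, differed by -0.11, so the sign was not shared.

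The pores of transmitter release were CACNA1E and CACNA1B in these data. CACNA1E, the R-type pore found in dendrites and terminals, had 9.32 ± 0.14. By brightest probe set its difference was the smallest of any kept member, 0.0057, with an interval from -0.14 to 0.15. Its second kept probe set differed by -0.11 ± 0.078 (SE), with p = 0.162 and adjusted p = 0.556, so the sign was not shared. The pair correlated over the arrays with r = 0.451. CACNA1B, the N-type pore, was below the filter with 4.47. CACNA1B and CACNA2D3 were thus measured by dim probe sets only, which does not show that their transcripts were rare.

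T-type pores, which open near rest and support burst firing, had a lower mean in HR for 3 of 3 genes, with a median of -0.025. CACNA1H (chr3:40637420-40694616) ran from 7.27 through 7.48 to 7.80 in HR and from 7.40 through 7.57 to 7.77 in LR. The HR animals held both the lowest and the highest value. The difference was -0.077 ± 0.075 (SE), with p = 0.313 and adjusted p = 0.671. Its second, dimmer probe set differed by -0.21 ± 0.095, with p = 0.0349 and adjusted p = 0.401, and the pair correlated over the arrays with r = 0.545. That probe set differed by -0.12 with the title number as a covariate (p = 0.324). With the GC-rich background it differed by -0.097 (p = 0.290) and with the neuron markers by -0.094 (p = 0.345). CACNA1G had 6.53 ± 0.14 and differed by -0.015, and CACNA1I had 8.11 ± 0.20 and differed by -0.025.

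Alpha2delta subunits carry the binding site of gabapentin in CACNA2D1 and CACNA2D2. CACNA2D1 had 8.51 ± 0.37 and ran from 7.83 to 9.36, the widest spread among the calcium channel genes by brightest probe set. CACNA2D2 had 6.80 ± 0.16 and differed by 0.067, CACNA2D1 differed by -0.091, and CACNA2D3 was below the filter with 3.90. CACNA2D4, known from photoreceptors (chr5:68805092-68899397), ran from 5.75 through 6.07 to 6.31 in HR and from 5.72 through 5.93 to 6.26 in LR. Its groups overlapped almost wholly, with a difference of 0.084 ± 0.080 (SE), p = 0.308 and adjusted p = 0.669. The 2 other CACNA2D4 probe sets, both below the filter, differed by -0.064 and 0.020.

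Calcium channel beta subunits bind the pore inside the cell and promote its surface expression. CACNB1 had 9.05 ± 0.24 and differed by 0.025. CACNB2 (chr10:44321954-44887410) had the lowest spread of all members, 0.090, and ran from 8.66 through 8.76 to 8.90 in HR and from 8.58 through 8.68 to 8.84 in LR. Of the 10 HR values 7 lay above the LR median. The difference was 0.069 ± 0.053 (SE), with p = 0.206 and adjusted p = 0.597. A second CACNB2 probe set, with a mean of 6.63, differed by 0.34 ± 0.13, with p = 0.0184 and adjusted p = 0.364. With the GC-rich background as a covariate (the mean signal of 24 control probe sets with at least 18 G or C bases) that difference was 0.11, with p = 0.298.

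CACNB3 (chr5:14875524-14888224) ran from 8.32 through 8.88 to 9.24 in HR and from 8.74 through 9.0 to 9.36 in LR. The lowest value, 8.32, was that of HR replicate 5. The 2 lowest HR values lay below all LR values and the 3 highest LR values above all HR values, with overlap between them. The difference was -0.13 ± 0.11 (SE), with p = 0.234 and adjusted p = 0.618. It changed sign to 0.067, 0.054 and 0.057 with the title number, the GC-rich background and the neuron markers as covariates.

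**Figure D2:**
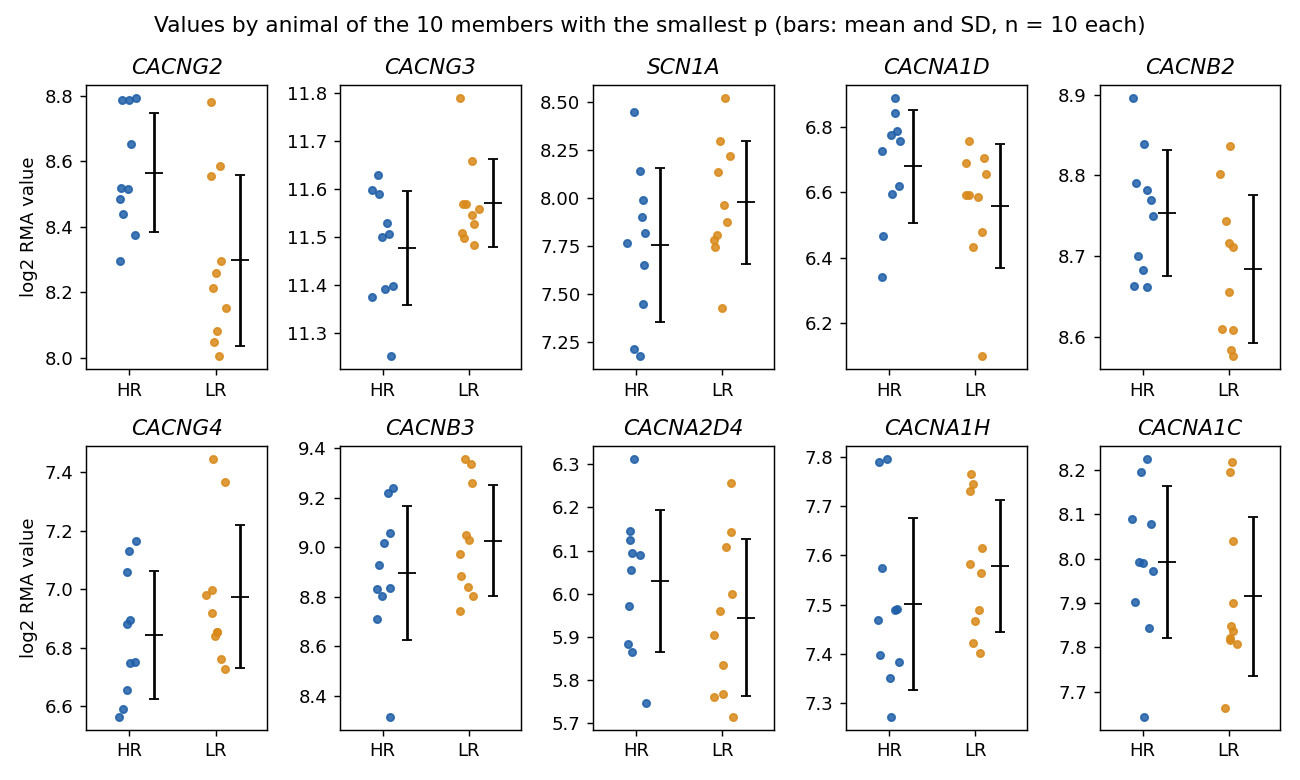
Log2 signal of the 10 members with the smallest p, with each point an animal in the HR or LR column and black bars for the mean and SD (n = 10 each). In each panel the columns overlap, and for CACNG2 all 10 HR animals lie above the LR median of 8.24.

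The gamma family held the member with the smallest p, and 6 of its 7 genes had a lower mean in HR. CACNG2 (chr5:11067016-11185480), stargazin, ran from 8.30 through 8.52 to 8.79 in HR and from 8.01 through 8.24 to 8.78 in LR. All 10 HR animals lay above the LR median, and 3 LR animals lay above the HR median. The difference was 0.27 ± 0.098 (SE), with an interval of 0.064 to 0.47 and a fold of 1.20. Its p was 0.0123, its adjusted p 0.342 and its p in a two-sided permutation test of the group labels 0.0177. Leaving out each array in turn gave differences of 0.24 to 0.32 and adjusted p from 0.100 to 0.588.

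CACNG2 was set beside 3 other measures over the arrays. Of the 17 marker lists the neuron list had the largest r with CACNG2 in size, and the microglia list came next with -0.553. The adjusted p below do not count the choice of the neuron list among these lists. The share of all named genes that reach such r with these measures was not computed. The mean of the 8 neuron markers on the array was 10.70 ± 0.099 for HR animals and 10.58 ± 0.12 for LR animals (SD, n = 10 each), running from 10.50 to 10.81 and from 10.42 to 10.81. All 8 neuron markers passed the filter and none passed the adjusted threshold. At an unadjusted p under 0.05, 2 of them were higher in HR, beside 7.1% of all named genes. Over the 20 arrays CACNG2 correlated with this mean with r = 0.695 (permutation p = 0.000910, rho = 0.695, p = 0.00101), with 0.356 within HR, 0.717 within LR and 0.702 without the 2 arrays farthest from the median. The GC-rich background was 7.31 ± 0.20 in HR and 7.50 ± 0.20 in LR (SD, two-sided permutation p = 0.0481, adjusted p = 0.0721 over 3 array measures). It correlated with CACNG2 with r = -0.693 (permutation p = 0.000760, rho = -0.725, p = 0.000480), with -0.346 within HR, -0.792 within LR and -0.673 without 2 arrays. The title number was higher in HR (2863 ± 109) than in LR (2601 ± 225, SD, two-sided permutation p = 0.000770, adjusted p = 0.00231 over 3 array measures), so its part and that of the group are hard to separate. It gave r = 0.535 (permutation p = 0.0106, rho = 0.653, p = 0.00264), with 0.366 within HR, 0.296 within LR and 0.601 without 2 arrays. The adjusted p over these 3 relations were 0.00136, 0.00136 and 0.0106. Within HR the permutation p were 0.314, 0.334 and 0.322 in the same order, and within LR 0.0198, 0.00671 and 0.422. CACNG2 was taken up for its difference between HR and LR, so r over all 20 arrays partly holds that difference.

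With these measures as covariates the CACNG2 difference was 0.12 for the neuron markers (p = 0.219), 0.14 for the GC-rich background (p = 0.137) and 0.16 for the title number (p = 0.187). With the first component, the choroid plexus markers or the myelin markers it was 0.23 (p = 0.0269), 0.28 (p = 0.0105) and 0.26 (p = 0.0116). The part of each measure in the CACNG2 difference was not tested. With array weights, which let limma count divergent arrays less, CACNG2 differed by 0.34 with adjusted p = 0.0441, in a fit that called 947 probe sets.

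Among the other gamma genes, CACNG3 (chr3:21855847-21961191), a TARP of the forebrain, ran from 11.25 through 11.50 to 11.63 in HR and from 11.48 through 11.55 to 11.79 in LR. The 4 lowest HR values lay below all LR values and the 2 highest LR values above all HR values. The difference was -0.093 ± 0.059 (SE), with p = 0.126 and adjusted p = 0.522. CACNG4 (chr12:13391080-13454542), a TARP also known from oligodendrocyte precursors in rodents, ran from 6.56 through 6.82 to 7.17 in HR and from 6.73 through 6.89 to 7.45 in LR. The 2 highest LR animals stood above all HR animals, the 3 lowest HR animals stood below all LR animals, and the rest overlapped. Its difference was -0.13 ± 0.10 (SE), with p = 0.212 and adjusted p = 0.603. It became 0.091, 0.026 and 0.083 with the title number, the GC-rich background and the neuron markers as covariates. The 3 other kept CACNG4 probe sets gave differences from -0.042 to 0.014, so the sign was not shared. Pairs of the 4 kept probe sets correlated over the arrays with r of 0.148 to 0.829.

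The remaining gamma genes showed smaller differences. CACNG5 and CACNG7, TARPs of the second type, had 7.09 ± 0.16 and 8.76 ± 0.13 and differed by -0.010 and -0.014. CACNG1, the skeletal muscle channel subunit, had 5.82 ± 0.20 and differed by -0.078. CACNG6, its closest relative, had 6.43 ± 0.15 and differed by -0.023. A second CACNG5 probe set differed by 0.27 ± 0.12, with p = 0.0405 and adjusted p = 0.415, and correlated with the brightest one with only r = 0.313.

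Counted by probe set rather than by gene, 5 of 46 member probe sets had an unadjusted p under 0.05, which is 10.9% beside the 11.5% of all probe sets (7.78% with HR higher and 3.74% with HR lower). Of these, 4 were higher in HR, in CACNA1D, CACNB2, CACNG2 and CACNG5, and the CACNA1H probe set was lower. Of the 12 genes with several kept probe sets, 7 had the same sign in all of them and 5 did not.

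**Figure D3:**
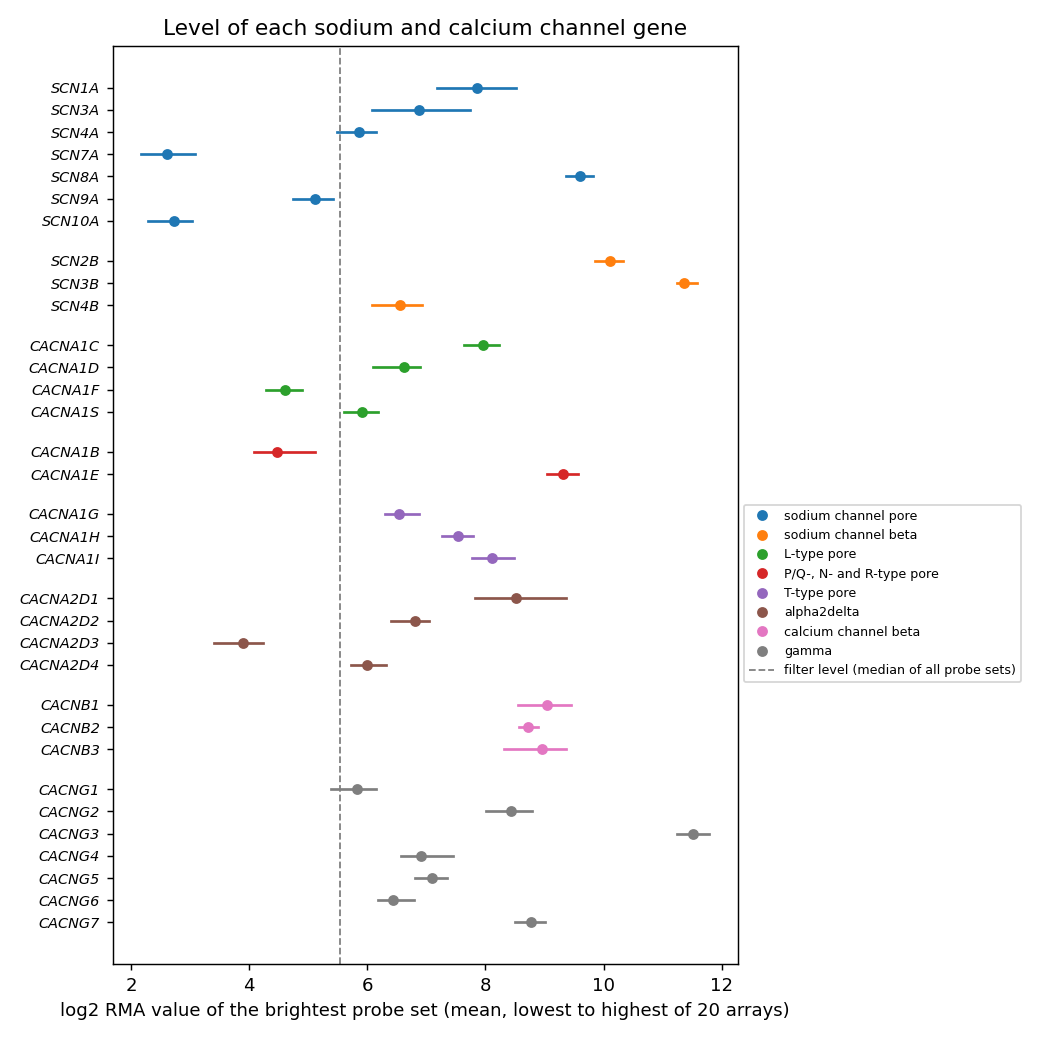
Mean log2 signal (points) and lowest to highest value over the 20 arrays (lines) of the brightest probe set of each of the 33 genes, grouped and coloured by subfamily, with the filter level of 5.53 as a dashed line. The 6 genes below the line are SCN7A, SCN9A, SCN10A, CACNA1F, CACNA1B and CACNA2D3, and the longest lines are those of SCN3A, CACNA2D1 and SCN1A.

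The members varied between animals to unlike degrees. The median SD of a kept member over the arrays was 0.16, beside 0.21 for all named genes, and the highest were 0.41 for SCN3A and 0.37 for SCN1A and CACNA2D1. These 3 varied together. SCN1A and CACNA2D1 correlated over the 20 arrays with r = 0.928 (permutation p = 1e-05, the smallest these permutations can give, adjusted p = 0.000439 over 351 pairs of members, rho = 0.905, p = 1e-05). The value was 0.932 within HR, 0.961 within LR and 0.912 without the 2 arrays farthest from the median of CACNA2D1. With the first component taken out of both genes by regression it was 0.902, and with the GC-rich background taken out 0.938.

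SCN3A correlated with CACNA2D1 with r = 0.834 (permutation p = 1e-05, adjusted p = 0.000439, rho = 0.856), with 0.958 within HR, 0.547 within LR and 0.738 without 2 arrays. With the first component taken out it was 0.667. SCN1A and SCN3A correlated with r = 0.777 (permutation p = 6e-05, adjusted p = 0.00140, rho = 0.762), with 0.860 within HR, 0.623 within LR and 0.693 without 2 arrays. They are close paralogs in 1 cluster on chromosome 15, with SCN9A and SCN7A beside them, and whether their probe sets bind each other's transcripts was not tested. The 4 kept SCN1A probe sets correlated over the arrays with r of 0.799 to 0.939.

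Other members ran against this trio. CACNA1E correlated with CACNA2D1 with r = -0.784 (permutation p = 6e-05, adjusted p = 0.00140, rho = -0.771), with -0.962 within HR, -0.628 within LR and -0.666 without 2 arrays. CACNA1C, a pore that CACNA2D1 accompanies in the membrane, correlated with CACNA2D1 with r = -0.768 (permutation p = 7e-05, rho = -0.707, adjusted p = 0.000490 over 7 relations set out in the design). This was -0.907 within HR, -0.609 within LR (p = 0.0605) and -0.669 without 2 arrays. CACNA1E and CACNA1C varied together over the animals, with r = 0.874 (permutation p = 1e-05, adjusted p = 0.000439, rho = 0.811), 0.869 within HR, 0.914 within LR, 0.875 without 2 arrays and 0.807 with the first component taken out. Not every leading pair held up as well. With the first component taken out, the other leading pairs ran from 0.786 (CACNA1E with CACNG7, 0.888 before) to 0.332 (CACNA1I with CACNB3, 0.835 before, permutation p = 0.150). The negative correlations with CACNA2D1 were not refitted in this way. In all, 97 of 351 pairs passed the adjusted threshold, 67 positive and 30 negative, and 76 of them also passed by rho. The weakest of these pairs had an r of 0.543 in size, which was reached by 27.6% of the member pairs and by 36.1% of all pairs of named genes (a share computed after the values were seen), so passing pairs were not more frequent among the members.

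**Figure D4:**
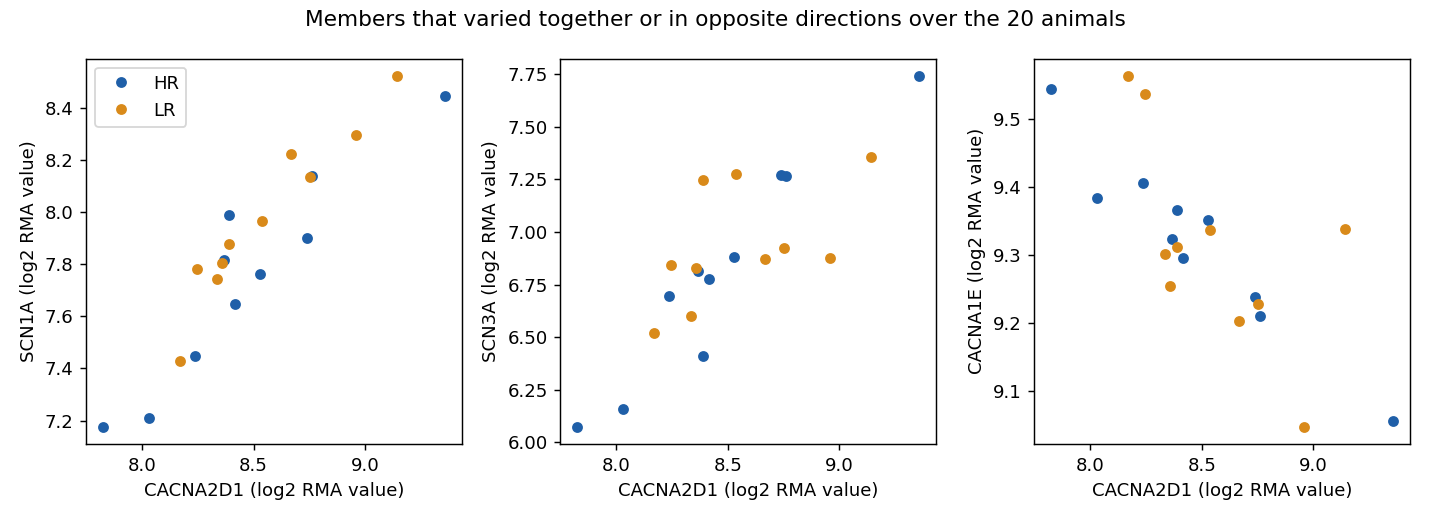
Log2 signal of SCN1A, SCN3A and CACNA1E (vertical axes) against that of CACNA2D1 (horizontal axes), with each point an animal, blue for HR and orange for LR. The animals line up along a rising course for SCN1A (r = 0.928) and SCN3A (r = 0.834) and a falling one for CACNA1E (r = -0.784). Both groups lie along the middle of the course, and its low and high ends on the horizontal axis hold HR animals.

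Of the relations set out in the design, 7 could be run and 4 passed. Over all pairs of named genes, 36.1% reached an r of 0.543 in size. With the first component, 65% of all named genes had an r beyond 0.6 in size. Passing alone therefore does not set these partners apart from other genes. CACNG4 correlated with the mean of the oligodendrocyte precursor markers with r = -0.727 (permutation p = 0.000370, adjusted p = 0.00129, rho = -0.734), with -0.865 within HR, -0.775 within LR and -0.788 without 2 arrays. All 5 precursor markers passed the filter, their mean was 8.54 ± 0.24 in HR and 8.56 ± 0.12 in LR, and it correlated with the first component with r = 0.801. SCN2B and SCN4B correlated with r = 0.554 (permutation p = 0.0114, adjusted p = 0.0200, rho = 0.526), with 0.657 within HR, 0.428 within LR (p = 0.218) and 0.641 without 2 arrays. SCN4B correlated with the first component with r = -0.633 (permutation p = 0.00293, adjusted p = 0.00684, rho = -0.594), with -0.588 within HR (p = 0.0755), -0.667 within LR and -0.557 without 2 arrays.

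The other 3 did not pass. SCN4B and PVALB, the marker of fast-spiking interneurons, gave r = 0.422 (permutation p = 0.0640, adjusted p = 0.0897, rho = 0.370), 0.285 within HR, 0.556 within LR and 0.203 without 2 arrays. SCN1A and PVALB gave r = -0.113 (permutation p = 0.633, adjusted p = 0.739, rho = -0.116), and SCN7A with the choroid plexus markers gave r = -0.076 (permutation p = 0.748, adjusted p = 0.748, rho = -0.060).

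The first principal component of all kept probe sets took up 48.0% of the variance, with a mean score of 8.41 among HR and -8.41 among LR animals (SD 31.2 and 27.0, permutation p = 0.213). It correlated with the GC-rich background with r = -0.887 (permutation p = 1e-05, rho = -0.871), with -0.895 within HR and -0.878 within LR. The member genes are a small share of the probe sets that define it. Of the 27 members 19 correlated with it at an adjusted p under 0.05 over the 27 relations, and 15 of these also by rho. CACNA2D1 (r = 0.759), SCN3A (0.677) and SCN1A (0.608) were positive and 16 were negative, led by CACNB3 (-0.891), CACNG4 (-0.855), CACNA1I (-0.848) and CACNG3 (-0.795).

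Negative correlations were found for 74.1% of the members and 60.7% of all named genes, and r was beyond 0.6 in size for 48.1% of the members and 65% of all named genes. HR replicate 5, at the positive end of the component with 65.3, held the lowest value of 8 members and the highest of 2. LR replicate 1, at the negative end with -53.0, held the highest value of 8 members and the lowest of 1. LR replicate 7, near the middle with 9.82, held the lowest of 5 members. Without the arrays at both ends CACNG2 differed by 0.27 with p = 0.0205, and SCN1A by -0.36 with p = 0.0133, and neither passed the adjusted threshold.

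**Figure D5:**
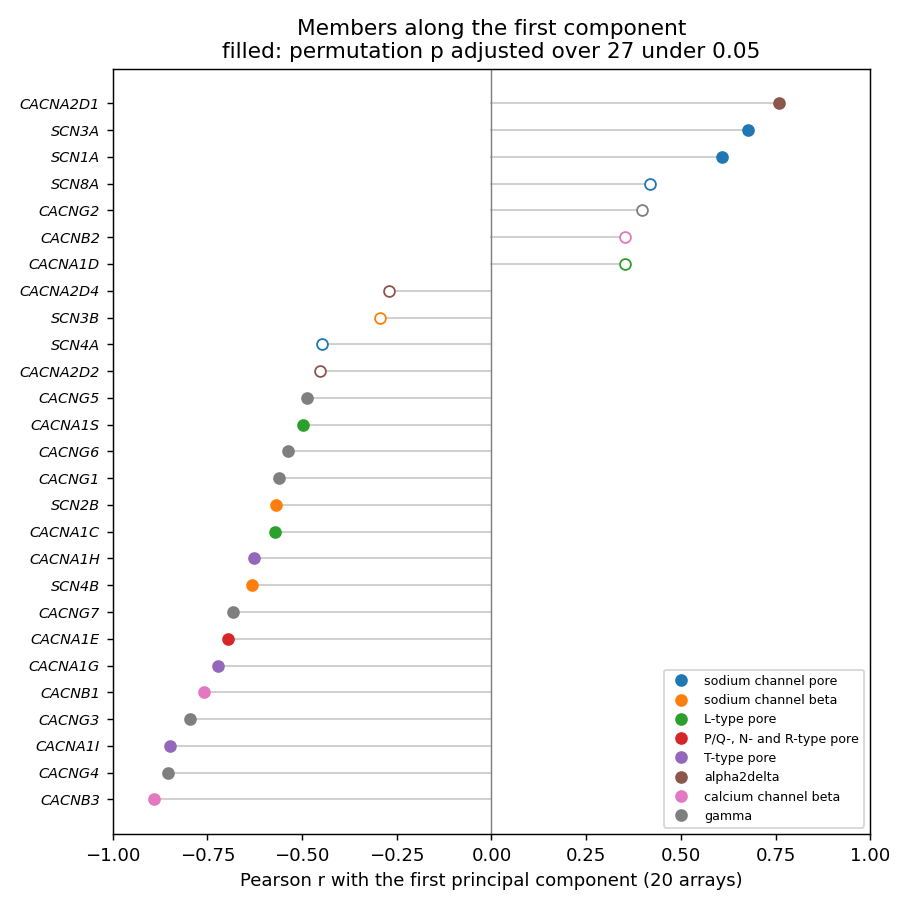
Pearson r of each of the 27 kept members with the first principal component over the 20 arrays, coloured by subfamily, with filled points where the permutation p adjusted over 27 relations was under 0.05. CACNA2D1, SCN3A and SCN1A stand at the positive end (0.759, 0.677 and 0.608) and CACNB3 at the negative end (-0.891).

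In the genome the members lie in part in clusters. All 33 matched RefSeq's pig annotation (Sscrofa11.1), 1 of them (CACNA1B) on an unplaced sequence, and 6 lay on chromosome 12, 6 on chromosome 5 and 5 on chromosome 9. On chromosome 15 the order was SCN3A (chr15:71717330-71824190), SCN1A, SCN9A (chr15:72745706-72912352) and SCN7A (chr15:72946147-73026656). The members on chromosome 12 were CACNA1G, CACNB1, CACNG1, CACNG4, CACNG5 and SCN4A. They lay 21.6 to 35.2 Mb from the behavior-associated interval, taken here from METTL16 to ATP1B2 (chr12:48491254-52932638), and differed by -0.13 to 0.025 between HR and LR.

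Genes that work with the channels were counted in the same way. Of 17 sodium channel partners, 16 were on the array and kept, 9 with a higher and 7 with a lower mean in HR and a median difference of 0.046. TRIM46, an organiser of the axon initial segment, was the one with an unadjusted p under 0.05, at -0.19 ± 0.082 (SE), p = 0.0338 and adjusted p = 0.399. Over all named genes 10.5% had an unadjusted p under 0.05. MAP1B, a microtubule protein, differed by 0.13, and the intracellular growth factors FGF13 and FGF14, which bind sodium channel tails, by 0.11 and 0.082. Of 22 calcium channel partners 18 were on the array and 16 kept, 7 higher and 9 lower, with a median of -0.025 and 0 at an unadjusted p under 0.05. GEM, an inhibitor of calcium channels, differed by 0.16 ± 0.10 (SE) with p = 0.125 and adjusted p = 0.520. AKAP5, an anchor of kinases at L-type channels, differed by 0.27 ± 0.22, the active zone linker RIMBP2 by 0.14 and the calmodulin gene CALM2 by -0.12.

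Of 12 related cation channel genes 7 were kept, 2 higher and 5 lower, with a median of -0.0040. FAM155A, a subunit of the sodium leak channel, differed by 0.18 ± 0.084 (SE), with p = 0.0389 and adjusted p = 0.412. HVCN1, a proton channel, differed by 0.19, UNC80, another leak channel subunit, by -0.094 and the pacemaker channel HCN3 by -0.045.

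Across the series, arrays correlated pairwise with r of 0.844 to 0.988, and array medians lay between 5.48 and 5.57. The markers of 17 cell types and neighbouring tissues differed by -0.13 to 0.20 as list means, 8 of the lists being higher in HR. Of 73 kept markers 6 had an unadjusted p under 0.05, beside 10.5% of all named genes, and 0 an adjusted one.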

How the data were processed

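Total RNA of hippocampus was labelled and hybridised to Affymetrix Snowball arrays, which were scanned with GCOS 1.1.1 per the submitters' processing notes. The deposited table holds log2 signals that the authors obtained by RMA in Affymetrix Expression Console, without the detection filter of the study. RMA forces every array onto the same distribution, which hides a change common to most transcripts, and it compresses differences of dim probe sets. Array number (10 HR, 10 LR) limits the precision.

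Of 47845 probe sets, 123 controls were left out and the 23861 with a mean above the median of 5.53 were kept. The groups were tested with lmFit and eBayes of limma 3.58.1 in R 4.3.3, two-sided, and p-values were adjusted by Benjamini-Hochberg across the kept probe sets. The limma code was tested on simulated data. Correlations used 100000 permutations. Relations with the first component, pairs of members, probe sets of 1 gene and relations of CACNG2 were added after the values were seen. Gene names are those of the platform annotation and some are old. Full values are given for the members with an unadjusted p under 0.05, filled to 10 by smallest p. The members, lists and tests were chosen with earlier results of these data known. The title number, GC-rich background, first component and marker means were covariates in alternatives. Sequences were not used here.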

Additional observations from a re-analysis of the deposited data

Results flagged for a closer look

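Single animals stood far from the rest of their group in 9 of 132 groups of 10 values (66 probe sets in HR and in LR), as judged by the gap to the nearest animal against the range of the group. Chance flags about 1 in 20 groups, or 6.6 here.

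Among the brightest probe sets, CACNA1D was 6.10 in LR replicate 3, with the other LR animals at 6.43 to 6.76. CACNA1F, below the filter, was 4.28 in HR replicate 2, with the other HR animals at 4.50 to 4.68.

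The other 7 were further probe sets of a gene. In HR replicate 5, another SCN1A probe set was 8.55 (others 6.66 to 7.64), the second CACNB3 probe set was 6.42 (others 6.84 to 7.30) and a dim SCN7A probe set was 2.10 (others 1.70 to 1.91). A second CACNA1D probe set was 6.01 in HR replicate 1 (others 6.50 to 6.77), and a dim SCN9A probe set was 2.38 in HR replicate 10 (others 1.67 to 1.95). Dim probe sets of CACNA1G and CACNA2D2 were 3.17 in LR replicate 2 (others 2.50 to 2.80) and 4.31 in LR replicate 3 (others 4.93 to 5.37). What set these animals apart was not tested.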

How the results depend on the processing

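The 10 fully described members were refitted under 17 other settings and with each of the 20 arrays left out, except that CACNA1D, CACNA2D4 and CACNG4 fell below the filter at a mean above 7. Leaving out arrays turned no sign among them. The count of members with an unadjusted p under 0.05 (1 in the report) was 2 for the mean of a gene's probe sets, 3 with array weights, 0 with the title number, 3 with the GC-rich background, 5 with the first component, 2 with the choroid plexus markers, 2 with the neuron markers and 2 without the arrays at both ends of the first component. With 1 array left out it was 1 to 2 (2 without HR replicate 5, with SCN1A added). Over all 23861 kept probe sets the count at that threshold ran from 675 with the title number to 5611 with array weights. It was 2750 in the report, so a member count alone shows no change particular to the members. Members past the adjusted threshold numbered 1 with array weights, CACNG2 at 0.34, and 0 to 0 with 1 array left out.

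The median difference over members, -0.014, was 0.059 with the title number (22 members higher in HR) and 0.044 with the GC-rich background (22 higher). It was 0.057 with the neuron markers (19 higher) and -0.033 to 0.015 with 1 array left out. The median over all named genes was not computed under these covariates, so these values do not show a shift particular to the members. CACNG4 turned to 0.091, 0.026 and 0.083, and CACNB3 to 0.067, 0.054 and 0.057, with the title number, the GC-rich background and the neuron markers, and CACNA1H to 0.014 with the GC-rich background. The cause was not tested.

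Over all probe sets the adjusted calls, 0 in the report, were 2 with 1 probe set per gene, 947 with array weights, 1 with the first component, 2 with the choroid plexus markers and 0 to 110 with 1 array left out (110 without HR replicate 1). Calls at an unadjusted p under 0.05, 2750 in the report, were 4495 with no filter and 1657 with a mean above 7, where 47722 and 12449 probe sets were tested, 1110 with 1 probe set per gene and 1141 with the mean of a gene's probe sets, where 10313 were tested, 5611 with array weights, 675 with the title number, 1654 with the GC-rich background, 5039 with the choroid plexus markers, 1738 without the arrays at both ends of the first component and 1888 to 4497 with 1 array left out (4497 without HR replicate 1). No paired analysis was possible because replicate numbers only name the arrays. The planned look at sequence features and 6 of 13 planned relations were not run.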
